A study of Cavia porcellus with 44 samples.

Results

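The comparison described here sets the livers of guinea pigs that had been taken off a high fat feed but left on low vitamin C (vitC) against the livers of guinea pigs that had never received high fat feed. Its members are 14 of the 44 animals of the study, 6 HFL/LFL and 8 LFH animals, chosen by their feed and not by any measured value. Liver RNA was sequenced at week 32, with 1 library per animal. Females of the Hartley stock were used throughout.

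LFH animals received a feed with 3.8% fat and 2000 mg vitC/kg for all 32 weeks and served as the lean, healthy reference. HFL/LFL animals first received a feed with 20% fat, added cholesterol and sucrose, and 50 mg vitC/kg for 16 weeks, and then a feed with 3.8% fat and the same 50 mg vitC/kg for another 16 weeks. Other groups place the values. The HFL/LFH group of 6 animals shared the first period of HFL/LFL and received 3.8% fat with 2000 mg vitC/kg in the second. The high fat feed was kept up for all 32 weeks in HFL/HFL (n = 10, vitC at 50 mg/kg), in HFL/HFH (n = 6, vitC raised from 50 to 2000 mg/kg for the second 16 weeks) and in HFH (n = 8, vitC at 2000 mg/kg). HFL/LFL and LFH therefore differed both in the first 16 weeks and in the vitC given at the time of sampling, and within this pair of groups these cannot be told apart. According to the study's methods, LFH animals were given feed to match the intake of HFH. Likewise HFL/LFL was matched to HFL/HFL, and HFL/LFH to HFL/HFH. All animals were partly fasted the night before sampling, which took several days, with each group spread over them.

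Guinea pigs, like humans, cannot make vitC, a water-soluble antioxidant that is also a cofactor of enzymes that hydroxylate collagen and carnitine precursors. Feed rich in fat and cholesterol leads to lipid storage in hepatocytes, to macrophages that take up lipid and carry proteins such as TREM2 and galectin 3, to ductular and matrix responses, and to lower transcription of the enzymes of cholesterol synthesis. The comparison asks which genes were still away from the level of the lean reference 16 weeks after the high fat feed had ended.

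Total counts ranged from 21469977 to 26759845 in HFL/LFL (median 26015611) and from 23153453 to 31655787 in LFH (median 25222151), and the groups' log2 totals gave a two-sided exact permutation p of 0.859. By effective library size, 3 counts, taken as the floor of detection for counting error only, equalled 0.122 to 0.152 CPM (counts scaled by effective library size to a common total) in HFL/LFL and 0.129 to 0.167 CPM in LFH. No 2 animals of a group had counts within sampling noise of each other, as 1 library deposited 2 times would (chi-square per gene of 59.1 to 308 over 43 pairs). Hepatocyte transcripts marked both groups as liver, with a mean of 92251 CPM of ALB (albumin) in HFL/LFL and 116670 CPM in LFH, and the 11 hepatocyte genes tested summed to 76666 to 168398 CPM in HFL/LFL and 103506 to 217693 CPM in LFH. Of 8 transcripts of fat, muscle, pancreas or gut, edgeR called 0 (0 with an unadjusted p under 0.05), and limma voom and DESeq2 called 0. In bulk liver, more cells of a type and more RNA per cell cannot be told apart.

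Livers of HFL/LFL animals were still away from LFH in 613 of 7750 genes tested, which is 7.91% (edgeR quasi-likelihood test, Benjamini-Hochberg adjusted p under 0.05). Of these genes, 343 (4.43%) were higher and 270 (3.48%) were lower in HFL/LFL. Counts of called genes in the lists below are to be read against these shares. An unadjusted p under 0.05 was found for 1768 genes, or 22.8% of those tested. The higher genes had a median log2 fold change of 0.82 and the lower genes a median of -0.58, against 0.03 over all genes tested. A change of at least 1 on the log2 scale held for 139 of the higher and 53 of the lower genes. The CPM ranges of both groups did not overlap for 108 genes, or 1.39%, and 93 of those were among the called genes, 37 higher and 56 lower. In all 14 fits that each left out a single animal, 217 genes kept the call, 128 higher and 89 lower. The total fell to 277 without HFL/LFL animal 49 and to 384 without animal 44, and it was 262 when the 14 animals were fitted on their own.

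Of 14 genes of lipid-laden macrophages tested, 7 were higher in HFL/LFL and none was lower (12 had an unadjusted p under 0.05, against 22.8% of all genes), and their median log2 fold change was 0.88. LGALS3, which encodes the lectin galectin 3 of phagocytes, ranged from 57.9 to 119 CPM in HFL/LFL (median 92.2) and from 5.47 to 16.3 CPM in LFH (median 9.03). Every HFL/LFL animal lay above every LFH animal, with animals 53 and 17 the lowest of the 6 and animal 44 the highest. Its log2 fold change was 3.21 ± 0.30 (SE, adjusted p = 4.05e-10, edgeR).

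TREM2, a lipid-sensing receptor of macrophages, ranged from 3.52 to 14.2 CPM in HFL/LFL (median 5.47) and from 0 to 0.668 CPM in LFH (median 0.0455). The groups did not overlap, and 3 of 8 LFH animals had more than 3 counts. The log2 fold change was 5.13 ± 0.62 (adjusted p = 3.38e-07, edgeR). Over the alternatives that did not leave out single animals, that of TREM2 ranged from 2.09 to 5.93. MMP12, the elastase of macrophages, lay at 1.34 to 6.42 CPM in HFL/LFL (median 3.76) and at 0 to 0.21 CPM in LFH (median 0), again without overlap (log2 fold change 6.39 ± 0.85, adjusted p = 2.09e-06, edgeR). Of 8 LFH animals, 1 had more than 3 counts of MMP12, and the value was 7.30 without LFH animal 25 and 1.78 on the deposited variance-stabilized values. FABP5, a fatty acid carrier, lay at 14.6 to 38.8 CPM (median 30.7) against 1.53 to 9.29 CPM (median 4.57), without overlap (log2 fold change 2.52 ± 0.34, adjusted p = 2.09e-06, edgeR). The remaining members called were the lipid droplet protein PLIN2, described with that list, and, named after their values were seen, CTSD, a lysosomal protease (log2 fold change 0.70, adjusted p = 0.00298, edgeR), and CLEC7A, the beta-glucan receptor dectin 1 (1.98, adjusted p = 0.00166, edgeR), both without overlap. With sample quality weights in limma voom, MMP12 and CLEC7A had an adjusted p of 0.069 and 0.0816.

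These genes had not stayed at the level of animals still fed high fat. HFL/HFL animals held a median of 438 CPM of LGALS3, 88.8 of TREM2, 64.3 of MMP12 and 170 of FABP5. In HFL/LFL, LGALS3 lay below HFL/HFL by a log2 fold change of -2.30, TREM2 by -3.73, MMP12 by -4.00 and FABP5 by -2.52, each with an adjusted p under 0.05 (edgeR). HFL/LFH animals, with the same history and ample vitC, held medians of 42.2 CPM of LGALS3, 2.27 of TREM2, 0.89 of MMP12 and 11.1 of FABP5, and none of these genes differed between HFL/LFL and HFL/LFH past the threshold (adjusted p = 0.141, 0.606, 0.236 and 0.0645, edgeR). Summed over the whole list, the level went the other way, with 37676 to 46653 CPM in HFL/LFL and 43834 to 57726 CPM in LFH. APOE, which hepatocytes also make, was the most abundant member at a mean of 37665 ± 3663 CPM (SD, n = 6) in HFL/LFL and 47801 ± 4381 CPM (SD, n = 8) in LFH, and had a log2 fold change of -0.34 that was not called. What share of these genes' values other cell types hold was not tested.

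**Figure D1:**
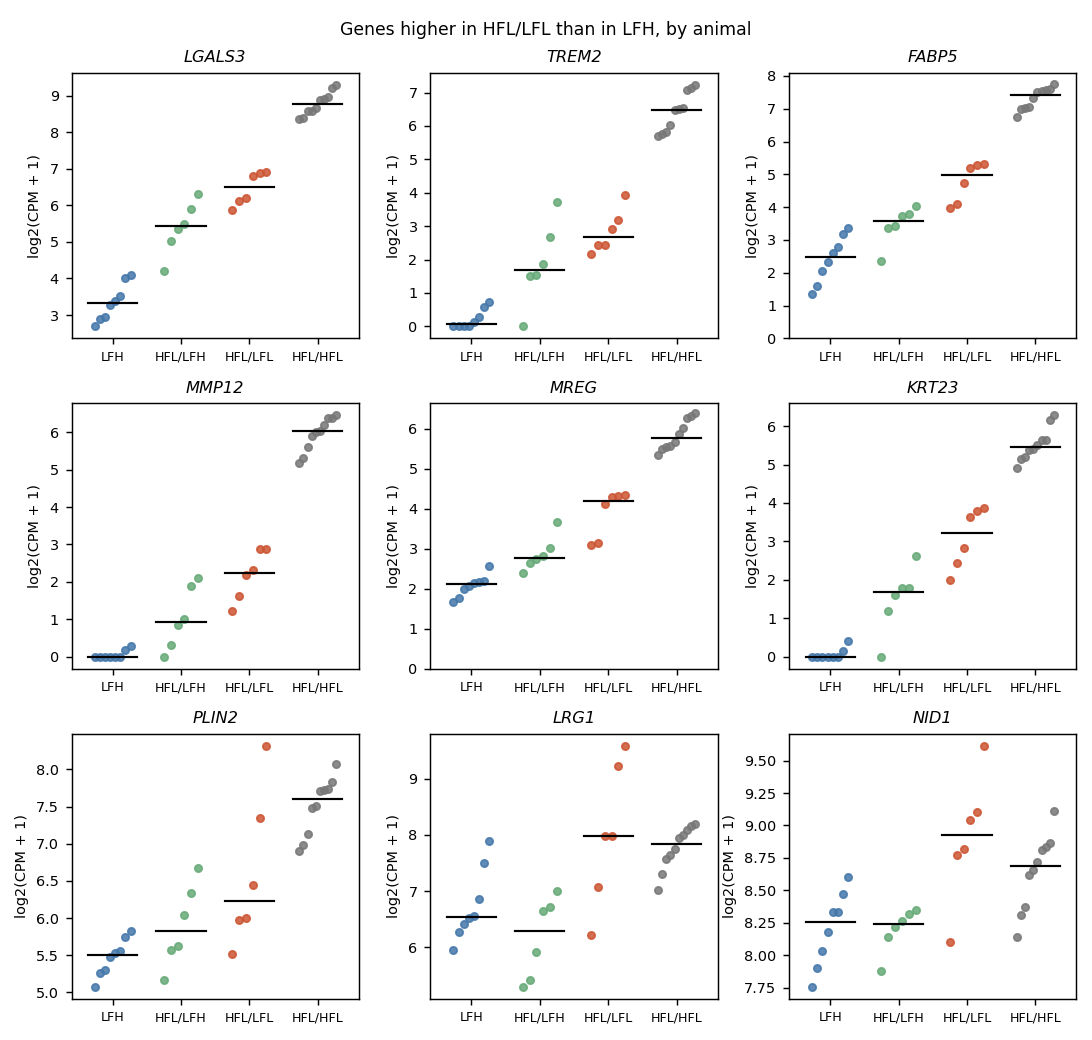
Levels of 9 genes that were higher in HFL/LFL than in LFH, as log2(CPM + 1) in each of 8 LFH, 6 HFL/LFH, 6 HFL/LFL and 10 HFL/HFL animals, with points placed by value and a line at the group median. LGALS3, TREM2, FABP5, MMP12, MREG and KRT23 sit between LFH and HFL/HFL in HFL/LFL, without overlap with LFH, while LRG1 and NID1 reach their highest values in HFL/LFL animals.

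Of 8 macrophage and Kupffer cell genes, MSR1, a scavenger receptor, was called (log2 fold change 0.65, adjusted p = 0.0329, edgeR), a call that was lost in 7 of the 14 leave-one-out fits (highest adjusted p 0.0989, without HFL/LFL animal 44). The list summed to 1065 to 2162 CPM in HFL/LFL and 1010 to 2072 CPM in LFH. CHIT1, a chitinase of activated macrophages, lay at 3.87 to 15.2 CPM in HFL/LFL (median 7.68) and 0.994 to 3.67 CPM in LFH (median 1.84), without overlap (log2 fold change 2.04, adjusted p = 0.000718, edgeR). CD74, the invariant chain of MHC class II, was the 1 of 6 antigen presentation genes called (0.81), and all 6 had positive log2 fold changes. It lost the call in 6 of 14 fits (highest adjusted p 0.112, without HFL/LFL animal 44).

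Among 18 T and NK cell genes, LCK, a kinase of the T cell receptor pathway, was called, with 6.33 to 13.8 CPM in HFL/LFL (median 10.5) and 3.64 to 7.44 CPM in LFH (median 6.05). Of the 6 HFL/LFL animals, 5 lay above every LFH animal. The defining T cell genes CD3D, CD3E and CD3G had log2 fold changes of -0.10, -0.61 and 0.08, none called, and the list summed to 170 to 348 CPM in HFL/LFL and 219 to 311 CPM in LFH. Of 11 B cell genes, MS4A1 (CD20) and CD79B were called, at log2 fold changes of 1.21 and 1.37, whereas CD79A was at 0.04. MS4A1 lost its call in 8 of the 14 fits (highest adjusted p 0.122, without HFL/LFL animal 44) and CD79B in the fits without HFL/LFL animal 44 (adjusted p = 0.0688) or 17 (0.0723). The B cell list summed to 376 to 498 CPM in HFL/LFL and 364 to 491 CPM in LFH. The part of these cells in the genes called was not tested.

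S100A8, S100A9 and MMP25 were the 3 of 12 neutrophil genes called, all higher, against 4.43% of all genes called higher. S100A8, a calcium-binding protein of neutrophils that other inflamed cells can make, lay at 0.62 to 8.29 CPM in HFL/LFL (median 3.66) and 0 to 1.1 CPM in LFH (median 0.558), with a log2 fold change of 2.67 ± 0.66 (adjusted p = 0.00958, edgeR). Animals 53, 49 and 68 held 6.41, 6.50 and 8.29 CPM, while animals 44, 13 and 17 lay within the LFH range. The granule genes MPO and ELANE, which define neutrophil precursors, were at means of 0 and 0.175 CPM in HFL/LFL, and LTF, at a mean of 146 CPM, had a log2 fold change of 0.12. The list summed to 158 to 223 CPM in HFL/LFL and 124 to 203 CPM in LFH. S100A9 lost its call in 9 of the 14 fits, with an adjusted p of up to 0.155 without HFL/LFL animal 53, and MMP25 in those without animal 53 (0.0563) or 68 (0.115).

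Of 12 acute phase genes tested, 4 were called higher and none lower (8 had an unadjusted p under 0.05), with a median log2 fold change of 0.78, and 2 of the 4 were S100A8 and S100A9. LRG1, a plasma glycoprotein made in the liver during inflammation, lay at 73.0 to 770 CPM in HFL/LFL (median 253) and 60.6 to 238 CPM in LFH (median 92.01). Of 6 HFL/LFL animals, 4 lay above every LFH animal, led by animals 53 and 49. The log2 fold change was 1.57 ± 0.33 (adjusted p = 0.00281, edgeR). APCS, serum amyloid P component, lay at 263 to 819 CPM (median 460) against 125 to 382 CPM (median 259), with 5 of 6 HFL/LFL animals above every LFH animal (log2 fold change 0.92 ± 0.22, adjusted p = 0.00774, edgeR, and 0.0601 without HFL/LFL animal 49).

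Both genes were higher in HFL/LFL than in HFL/LFH: LRG1 by a log2 fold change of 2.14 (adjusted p = 0.00342, edgeR) and APCS by 1.07 (adjusted p = 0.0378, edgeR). With 1 animal of either group left out, the LRG1 call held in all 12 fits and the APCS call was lost in 8 (highest adjusted p 0.159, without HFL/LFL animal 49). In HFL/LFH their medians were 79.5 and 215 CPM. APCS was also higher in HFL/LFL than in HFL/HFL (median 230 CPM, log2 fold change 1.08, adjusted p = 7.23e-05, edgeR). Other liver-made members had positive values that were not called against LFH, namely CRP (1.202), HPX (0.73), CP (0.79) and FGG (0.76), while SERPINA1 and SERPINA3 were at 0.01 and -0.03. HPX was, however, called between HFL/LFL and HFL/LFH. CRP was not among the 17 genes called in that comparison, for which the paper, using DESeq2, reports CRP as higher in HFL/LFL.

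KRT23, a keratin of ductular reactions, had the smallest p of all genes and lay at 2.96 to 13.6 CPM in HFL/LFL (median 8.74) against 0 to 0.335 CPM in LFH (median 0). In LFH, 6 of 8 animals had no count, and animal 92, with 6 counts, held the highest value. The log2 fold change was 7.32 ± 0.63 (adjusted p = 7.75e-11, edgeR), 8.87 without LFH animal 92 and 2.48 on the variance-stabilized values. KRT23 also lay above HFL/LFH by 1.94 (adjusted p = 0.0378, edgeR, a call lost in 8 of 12 fits that left out 1 animal) and below HFL/HFL by -2.46 (adjusted p = 5.30e-06, edgeR). Of 13 cholangiocyte and ductular genes, 4 were called higher (4.43% of all genes were) and none lower, with a median log2 fold change of 0.77. The other 3 were EPCAM (1.09), CLDN4 (1.203) and AQP1 (0.78), which encode an adhesion molecule, a tight junction protein and a water channel. The more abundant duct keratin KRT19 was at -0.51 and not called. Leaving out HFL/LFL animal 44 ended the call of EPCAM (log2 fold change 0.70, adjusted p = 0.0952), and 4 single animals ended that of AQP1 (highest adjusted p 0.173, without HFL/LFL animal 49). CLDN4 was not called by limma voom (adjusted p = 0.0983). The list summed to 705 to 1214 CPM in HFL/LFL and 478 to 879 CPM in LFH.

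Of 34 matrix and fibrosis genes tested, 10 had an unadjusted p under 0.05, against 22.8% of all genes. By adjusted p, 5 were higher (4.43% of all genes were) and none was lower, with a median log2 fold change of 0.21. Apart from MMP12 they were THBS1, NID1, LOXL4 and LTBP2. THBS1, a matrix glycoprotein that can activate TGF-beta, lay at 22.8 to 88.2 CPM in HFL/LFL (median 26.5) and 9.41 to 19.7 CPM in LFH (median 14.035), without overlap. Animal 17 alone lay above 30.2 CPM, and without it the log2 fold change fell from 1.34 to 0.87 (adjusted p = 0.0212, edgeR). NID1, the basement membrane linker nidogen 1, lay at 273 to 783 CPM (median 488) against 215 to 388 CPM (median 305), with 5 of 6 HFL/LFL animals above every LFH animal (log2 fold change 0.75, adjusted p = 0.00496, edgeR). LOXL4, a cross-linking enzyme, had a log2 fold change of 0.82 (adjusted p = 0.00496, edgeR). LTBP2, a TGF-beta binding protein, was at 1.26 (adjusted p = 0.0429, edgeR) and lost its call in 9 of the 14 fits, falling to 0.89 (adjusted p = 0.202) without HFL/LFL animal 44. FN1, LUM, SPARC and COL6A2 were at 0.42, 0.08, 0.08 and 0.43 and were not called.

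Among 16 stellate cell and myofibroblast genes, RGS5, a marker of pericytes, was called at a log2 fold change of 0.58 (adjusted p = 0.0432, edgeR), a call that 9 of the 14 fits did not keep (highest adjusted p 0.138, without HFL/LFL animal 44). That list summed to 1855 to 2652 CPM in HFL/LFL and 1552 to 2195 CPM in LFH. Of 11 endothelial genes none was called by edgeR, limma voom or DESeq2, and 2 had an unadjusted p under 0.05.

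Of 16 genes of cholesterol synthesis and uptake tested, 7 were lower in HFL/LFL and none was higher (10 had an unadjusted p under 0.05, against 22.8% of all genes), and the median log2 fold change was -0.45. The list summed to 1933 to 3583 CPM in HFL/LFL (median 2787) and 2861 to 4459 CPM in LFH (median 4033). DHCR7, the enzyme of the last step to cholesterol, lay at 75.8 to 228 CPM in HFL/LFL (median 106) and 171 to 352 CPM in LFH (median 234). Of the 6 HFL/LFL animals, 5 lay below every LFH animal, and animal 17 lay within their range. The log2 fold change was -0.93 ± 0.23 (adjusted p = 0.00957, edgeR).

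TM7SF2, a sterol reductase, lay at 202 to 418 CPM in HFL/LFL (median 267) and 341 to 621 CPM in LFH (median 454), with 5 of 6 HFL/LFL animals below every LFH animal (log2 fold change -0.71 ± 0.14, adjusted p = 0.00139, edgeR). EBP, MSMO1, SC5D and MVK, other enzymes of the pathway, had log2 fold changes of -0.71, -0.81, -0.74 and -0.45. The calls of MSMO1, SC5D and MVK were each lost in 7, 9 and 8 of the 14 fits, with adjusted p of up to 0.115 without LFH animal 79, 0.126 without HFL/LFL animal 44 and 0.107 without HFL/LFL animal 44. EBP lost its call without HFL/LFL animal 49 (adjusted p = 0.0975), HFL/LFL animal 44 (0.0638) or LFH animal 25 (0.0528). SQLE and CYP51A1, also enzymes of the pathway, were at -0.45 and -0.40, neither called. In HFL/LFH the list had a median log2 fold change of -0.03 against LFH. None of the enzymes named here was among the 17 genes called between HFL/LFL and HFL/LFH directly. On the high fat feed DHCR7 and TM7SF2 were lower still, at medians of 43.4 and 141 CPM in HFL/HFL, and HFL/LFL lay above that group by 1.56 (adjusted p = 1.82e-07, edgeR) and 1.02 (adjusted p = 4.57e-08, edgeR).

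STARD4, a sterol carrier of the same list, did not follow this order. It lay at 5.87 to 8.72 CPM in HFL/LFL (median 7.05) and 18.4 to 44.5 CPM in LFH (median 23.1), without overlap (log2 fold change -1.92 ± 0.25, adjusted p = 1.83e-06, edgeR). Its median was 5.47 CPM in HFL/LFH, 6.21 in HFL/HFL and 7.03 in HFH. Between HFL/LFL and HFL/HFL the log2 fold change was 0.21 ± 0.23 (adjusted p = 0.501, edgeR), and against HFL/LFH it was 0.28 ± 0.26 (adjusted p = 0.789, edgeR). GLUL, glutamine synthetase of the hepatocytes around the central vein, lay at 108 to 246 CPM in HFL/LFL (median 142) and 233 to 536 CPM in LFH (median 426), with 5 of 6 HFL/LFL animals below every LFH animal (log2 fold change -1.38 ± 0.22, adjusted p = 9.55e-05, edgeR). Its medians were 174 CPM in HFL/LFH, 200 in HFL/HFL and 204 in HFH, and HFL/LFL and HFL/HFL differed by -0.37 (adjusted p = 0.163, edgeR).

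PSPH, the last enzyme of serine synthesis, and UBE2QL1, a ubiquitin-conjugating enzyme, likewise had lower medians than LFH in every group with high fat feed at some time. PSPH had medians of 83.0 CPM in HFL/LFL, 72.5 in HFL/LFH, 66.9 in HFL/HFL and 63.5 in HFH, against 189 in LFH (log2 fold change of HFL/LFL -1.12, adjusted p = 0.00904, edgeR), and 2 of 6 HFL/LFL animals lay below every LFH animal. UBE2QL1 had medians of 0.457, 0.345, 0.334 and 0.376 CPM in the same order, against 3.31 in LFH (-3.03, adjusted p = 0.00258, edgeR), without overlap. They were set side by side after their values were seen. The 4 genes STARD4, GLUL, PSPH and UBE2QL1 were not called between HFL/HFH and HFL/LFH, the comparison of high and low fat feed at ample vitC.

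**Figure D2:**
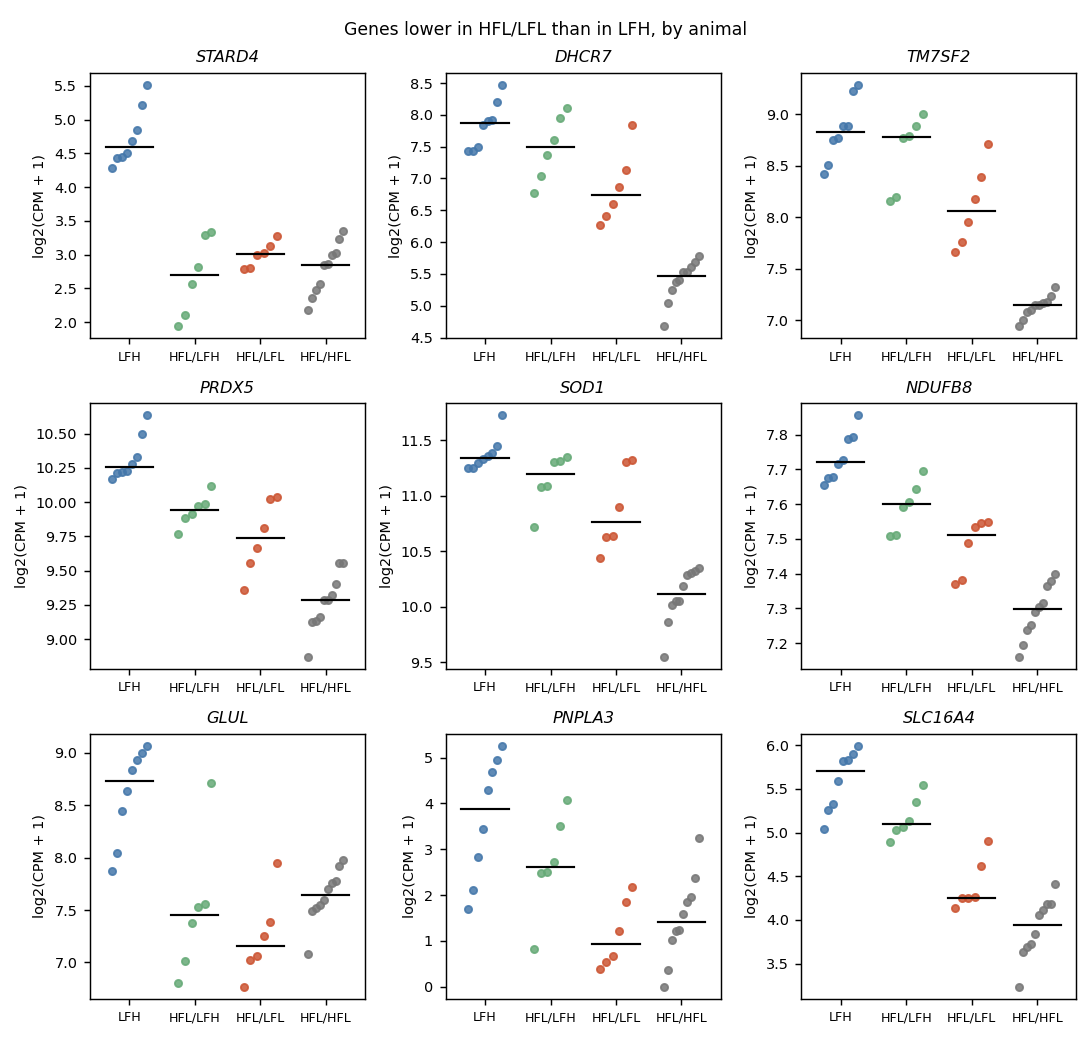
Levels of 9 genes that were lower in HFL/LFL than in LFH, as log2(CPM + 1) in each animal, with the groups and lines as in the plot of higher genes and vertical axes that do not start at 0. DHCR7, TM7SF2, PRDX5, SOD1 and NDUFB8 lie between LFH and HFL/HFL in HFL/LFL, while STARD4 and GLUL lie at similar medians in HFL/LFH, HFL/LFL and HFL/HFL, all below LFH.

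Genes of lipid storage and synthesis went in both directions. PLIN2, which coats lipid droplets, lay at 44.6 to 318 CPM in HFL/LFL (median 74.8) and 32.8 to 55.7 CPM in LFH (median 44.4). Animals 49 and 53 held 318 and 161 CPM, and 5 of 6 HFL/LFL animals lay above every LFH animal. The log2 fold change was 1.48 ± 0.31 (adjusted p = 0.00258, edgeR), and 0.93 (adjusted p = 0.0517) without animal 49. PNPLA3, a lipase of the droplet surface that is induced by feeding, lay at 0.310 to 3.49 CPM against 2.25 to 37.3 CPM (medians 0.955 and 14.2), with 4 of 6 HFL/LFL animals below every LFH animal (log2 fold change -3.49 ± 0.83, adjusted p = 0.00744, edgeR, and 0.063 with limma voom).

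THRSP, a regulator of lipogenic genes, lay at 4.75 to 332 CPM in HFL/LFL (median 26.7) and 179 to 657 CPM in LFH (median 334). Animal 17, at 332 CPM, lay in the middle of the LFH range and the other 5 lay below it. Its log2 fold change was -2.05 (adjusted p = 0.0329, edgeR), and 6 of the 14 fits did not call it (highest adjusted p 0.0844, without HFL/LFL animal 49), while without animal 17 it was at -3.22. Of 15 genes of fatty acid and triglyceride synthesis, PNPLA3 and THRSP were the 2 called by edgeR (8 had an unadjusted p under 0.05), DESeq2 called 6, and the median was -0.40. CPT1A, which brings fatty acids into mitochondria, was the 1 of 15 oxidation genes called, at 1.18 (adjusted p = 0.0268, edgeR), and without HFL/LFL animal 49, at 1563 CPM, it was at 0.67 (adjusted p = 0.267), 1 of 4 fits that lost the call. PLIN5, another droplet protein, was at 1.02 (adjusted p = 0.0464, edgeR) and kept its call in 5 of the 14 fits (highest adjusted p 0.159 without HFL/LFL animal 49). AADAC, an esterase, rested on HFL/LFL animal 53, with 8.45 CPM, since the other 5 had no count. No LFH animal had more than 2 counts. Of the 14 fits, 3 kept its call, and without animal 53 the log2 fold change turned to -2.25 (adjusted p = 0.725).

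Of 24 antioxidant and NRF2 target genes, the median log2 fold change was 0.00, with 12 positive and 12 negative values. In this list, 4 were lower (3.48% of all genes were) and none was higher. All 4 remove peroxides or superoxide. PRDX5, a peroxiredoxin of mitochondria and peroxisomes, lay at 657 to 1050 CPM in HFL/LFL (median 855) and 1152 to 1586 CPM in LFH (median 1220), without overlap (log2 fold change -0.57 ± 0.14, adjusted p = 0.00958, edgeR). PRDX6, a cytosolic peroxiredoxin, lay at 426 to 622 CPM (median 457) against 571 to 770 CPM (median 642), with 5 of 6 HFL/LFL animals below every LFH animal and animal 17 within their range (-0.45 ± 0.11, adjusted p = 0.00783, edgeR).

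PRDX3, the mitochondrial peroxiredoxin, was at -0.57 (adjusted p = 0.0236, edgeR), and lost its call without HFL/LFL animal 49 (adjusted p = 0.1003), 44 (0.0833) or 53 (0.0625). SOD1, the cytosolic superoxide dismutase, lay at 1385 to 2552 CPM in HFL/LFL (median 1748) and 2434 to 3375 CPM in LFH (median 2595). Animals 17 and 68 reached the LFH range and 4 lay below it (log2 fold change -0.48, adjusted p = 0.0309, edgeR). Without HFL/LFL animal 49, 44 or 53, or LFH animal 79, its adjusted p rose to 0.117, 0.0868, 0.0829 and 0.0718.

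Of 26 genes of vitC transport, recycling and vitC-dependent dioxygenases, 1 was higher and 2 were lower, with a median log2 fold change of 0.07. Over all genes, 4.43% were called higher and 3.48% lower. SLC2A8, a hexose carrier that can also carry oxidized vitC, lay at 3.15 to 7.04 CPM in HFL/LFL (median 5.28) and 0.946 to 3.82 CPM in LFH (median 2.51), with 5 of 6 HFL/LFL animals above every LFH animal (log2 fold change 1.04, adjusted p = 0.0125, edgeR, and 0.0766 with limma voom). TMLHE, the first enzyme of carnitine synthesis, lay at 16.8 to 22.3 CPM against 22.7 to 30.9 CPM, without overlap (-0.40 ± 0.12, adjusted p = 0.025, edgeR, and 0.0754 and 0.0846 without HFL/LFL animals 53 and 49). CYB5R3, a reductase, was at -0.41 (adjusted p = 0.0377, edgeR), a call kept in 7 of the 14 fits (highest adjusted p 0.154, without HFL/LFL animal 49). The vitC carrier SLC23A2 lay at 65.3 to 101 CPM in HFL/LFL (median 76.3) and 38.2 to 78.1 CPM in LFH (median 56.5), and its log2 fold change of 0.45 ± 0.17 was not called (adjusted p = 0.0851, edgeR, and 0.0430 without LFH animal 64). Collagen hydroxylases were not called, with P4HA1, P4HA2 and PLOD2 at 0.27, 0.21 and 0.07.

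Of 24 mitochondrial respiration genes tested, 3 were called lower (3.48% of all genes were) and none higher by edgeR, and limma voom called 1. A negative log2 fold change was found in 21, and the median was -0.21. NDUFB8, a subunit of complex I, lay at 164 to 186 CPM in HFL/LFL (median 181) and 200 to 230 CPM in LFH (median 210), without overlap (log2 fold change -0.26 ± 0.06, adjusted p = 0.00673, edgeR). COX6C and NDUFA4 were at -0.35 and -0.30 and kept their calls in 7 and 4 of the 14 fits, with adjusted p of up to 0.110 without LFH animal 27 and 0.115 without HFL/LFL animal 53. Of 15 genes of glucose, amino acid and urea metabolism, 14 had negative values and GLUL and PSPH were called. Of 20 genes of drug and toxin metabolism, 18 had negative values and 4 had an unadjusted p under 0.05, against 22.8% of all genes. The 1 gene called was GSTM3, a glutathione transferase (-0.55, adjusted p = 0.0187, edgeR, and 0.0827 and 0.0642 without HFL/LFL animals 49 and 44). In the list of hepatocyte function, 9 of 11 were negative and APOA2, an apolipoprotein of HDL, was called (-0.66, adjusted p = 0.0409, edgeR), in 7 of the 14 fits (highest adjusted p 0.129, without HFL/LFL animal 49).

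The remaining lists held few called genes. Of 21 hypoxia genes, HK2, NDRG1 and PFKP, which act in glycolysis or stress, were higher at log2 fold changes of 0.92, 0.65 and 0.57, and ERO1A was lower at -0.41. HK2 lost its call without HFL/LFL animal 49 (adjusted p = 0.0543) or 68 (0.0655), NDRG1 without 53, 49 or 44 (up to 0.0717), PFKP in 4 fits (up to 0.108, without HFL/LFL animal 68) and ERO1A in 8 (up to 0.122, without HFL/LFL animal 49). Of 17 chemokines and cytokines, CCL22 was called at 2.39, from 0.122 to 1.59 CPM in HFL/LFL and up to 0.219 CPM in LFH, and lost the call without HFL/LFL animal 44 (adjusted p = 0.0822). Limma voom called none of this list and DESeq2 called 4. Its median was 0.84, falling to 0.53 without HFL/LFL animal 68, with 15 positive values, and 7 had an unadjusted p under 0.05 (22.8% of all genes did). Of 18 interferon response genes, 17 had positive log2 fold changes, with a median of 0.43 that fell to 0.06 without HFL/LFL animal 68. MANF, of 15 genes of endoplasmic reticulum stress, was at 0.68 (adjusted p = 0.0397, edgeR), a call lost in 6 of the 14 fits (up to 0.287, without HFL/LFL animal 49) and with limma voom (0.174). DUSP1, an early response phosphatase, was lower at -1.17 (adjusted p = 0.00194, edgeR) and KLF6 of the same list of 18 higher at 0.74 (adjusted p = 0.0415, edgeR), the latter in 3 of the 14 fits (up to 0.148, without HFL/LFL animal 49). HLF, 1 of 10 clock genes, was at -0.77 (adjusted p = 0.0263, edgeR) and lost its call in 5 fits (up to 0.0975, without HFL/LFL animal 49). No gene was called among 23 of the cell cycle, 13 of LXR and sterol efflux and 5 of erythrocytes (edgeR, with 3, 3 and 0 at an unadjusted p under 0.05). DESeq2 called 1, 1 and 0 of them, and limma voom called none.

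**Figure D3:**
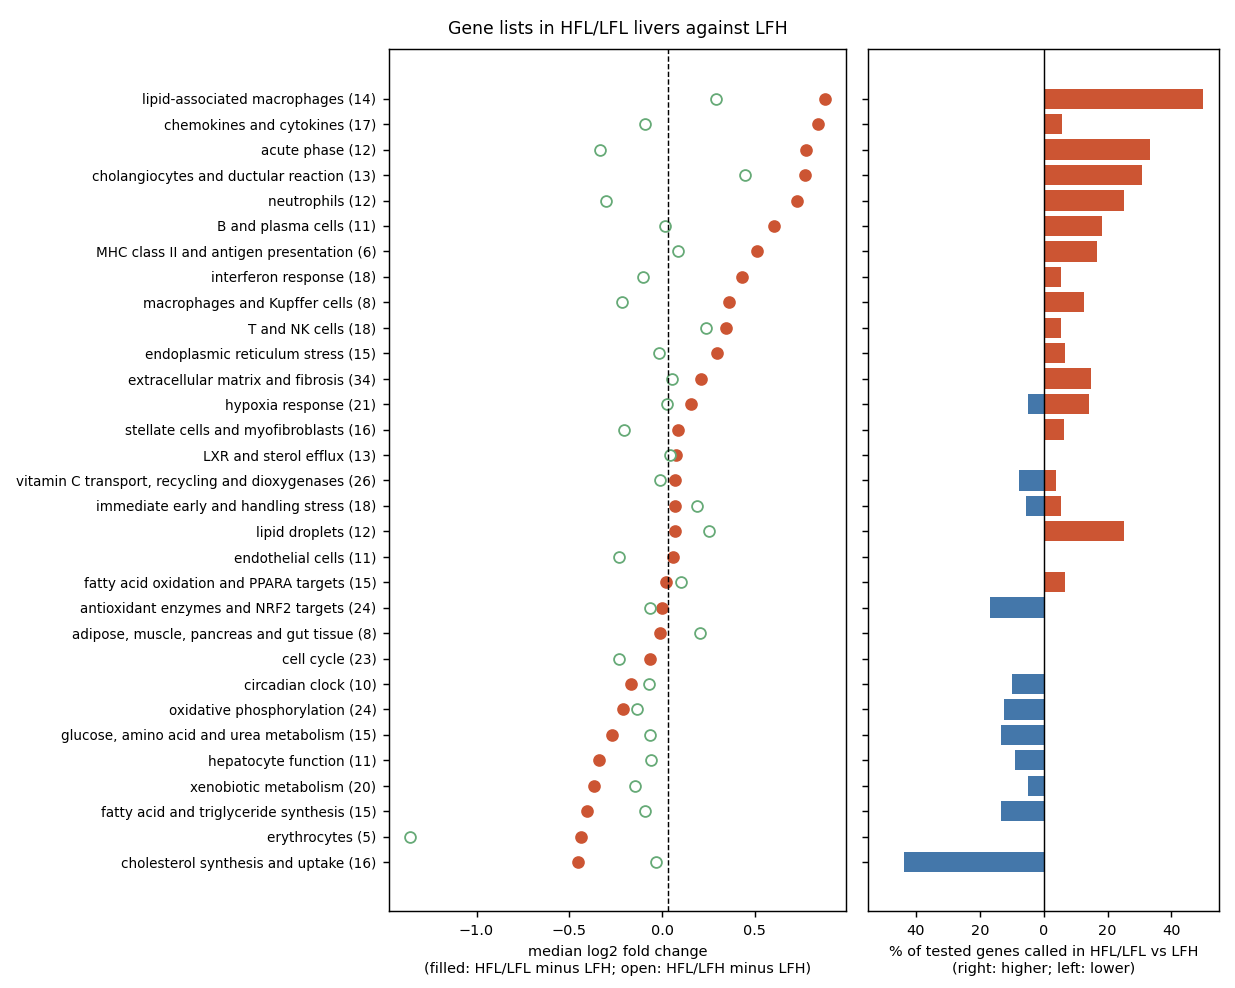
Median log2 fold change of 31 gene lists in HFL/LFL minus LFH (filled) and HFL/LFH minus LFH (open), with the number of genes tested in brackets and a dashed line at the median of all genes, 0.03, and, on the right, the share of each list called higher or lower in HFL/LFL. Both comparisons use the same LFH animals. Lipid-associated macrophages (7 of 14 higher) and cholesterol synthesis and uptake (7 of 16 lower) have the longest bars.

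Further genes were named for the largest changes among called genes without overlap or, for SLC16A4 and TMEM35B, for the smallest p alone. SLC6A8, the creatine carrier, lay at 5.66 to 20.4 CPM in HFL/LFL (median 13.6) and 1.41 to 5.02 CPM in LFH (median 2.94), without overlap (log2 fold change 2.24, adjusted p = 1.83e-06, edgeR). MREG, a regulator of lysosome maturation, lay at 7.45 to 19.1 CPM (median 17.4) against 2.19 to 4.96 CPM (median 3.31), without overlap (2.17, adjusted p = 8.07e-08, edgeR). CCN5, a matricellular protein, was at 2.56 (adjusted p = 0.000157, edgeR), with animal 44 at 89.5 CPM and the other HFL/LFL animals at 33.5 CPM or less, and DCLK1, a microtubule-binding kinase, was at 2.37 (adjusted p = 0.000191, edgeR).

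On the lower side, SLC16A4, a monocarboxylate carrier, lay at 16.5 to 28.9 CPM in HFL/LFL (median 18.1) and 31.9 to 62.8 CPM in LFH (median 51.4), without overlap (-1.24, adjusted p = 1.56e-05, edgeR). CCDC149 was at -1.61, RNASEH2C, a subunit of ribonuclease H2, at -1.54, ACAN, the proteoglycan aggrecan, at -2.11, MROH7 at -4.05, ASB4 at -1.60 and ZNF667 at -1.64, all without overlap. ASB4 lost its call without HFL/LFL animal 49 (adjusted p = 0.0601), and ZNF667 without LFH animal 25 (0.0592) or HFL/LFL animal 44 (0.0535). C9orf152 was at -6.83, with 0.273 to 27.8 CPM in LFH and up to 0.170 CPM in HFL/LFL, and at -6.07 without LFH animal 79, its highest. TMEM35B was at -0.61 (adjusted p = 1.16e-05, edgeR), with 19.2 to 25.4 CPM in HFL/LFL against 29.5 to 39.5 CPM in LFH. On high fat feed it had a median of 35.3 CPM in HFL/HFL against 33.4 in LFH and 22.6 in HFL/LFL.

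HFL/LFL and HFL/LFH differed in the vitC of the second feed and in the group their intake was matched to. These cannot be told apart. HFL/LFL differed from HFL/LFH, its counterpart with ample vitC, in 17 genes, which is 0.219% of those tested (850 had an unadjusted p under 0.05). That count was 80 with DESeq2 and 40 with limma voom, and leaving out 1 animal gave from 3 (HFL/LFH animal 3) to 57 (HFL/LFL animal 17). Of the 17 genes, 13 were also called against LFH, using the same HFL/LFL animals. Those named here were KRT23, MREG, LRG1 and APCS, described above, together with HACD4, NEDD4L, RELL1, ABCB1 and MMP25, which were higher, and GPC1 and NYNRIN, which were lower. Of these 11 genes, RELL1, LRG1 and NYNRIN kept the call against HFL/LFH in all 12 fits that left out 1 HFL/LFL or HFL/LFH animal. KRT23, MREG and APCS lost it in 8 of the 12, GPC1 in 6, NEDD4L and ABCB1 in 5, and HACD4 and MMP25 in 4. NYNRIN lost its call against LFH without HFL/LFL animal 49 (adjusted p = 0.0625) or 68 (0.0643).

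RELL1, a receptor relative of the TNF receptor family, lay at 9.95 to 14.015 CPM in HFL/LFL (median 11.5), 5.05 to 9.42 CPM in LFH (median 6.77) and 5.15 to 8.56 CPM in HFL/LFH (median 6.79). HFL/LFL lay above both other groups without overlap, by log2 fold changes of 0.73 (adjusted p = 0.000267, edgeR) over LFH and 0.80 (adjusted p = 0.00342, edgeR) over HFL/LFH. HACD4, of very long chain fatty acid synthesis, had medians of 5.82 CPM in HFL/LFL, 1.97 in LFH and 2.80 in HFL/LFH, and ABCB1, a drug efflux pump, 1.69, 0.545 and 0.432. GPC1, a heparan sulfate proteoglycan, had medians of 83.3 CPM in HFL/LFL, 145 in LFH, 192 for HFL/LFH and 240 for HFL/HFL, so that HFL/LFL had the lowest median of these (log2 fold change -1.01, adjusted p = 0.0134, edgeR, against LFH).

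HFL/LFH animals, which share both feed fat and vitC with LFH at sampling, differed from LFH in 28 genes, or 0.361% of those tested (804 had an unadjusted p under 0.05). The count was 64 with DESeq2, 17 with limma voom and 54 without LFH animal 64. Since both comparisons use the same LFH animals, their calls are given side by side only. Against LFH, the log2 fold changes of HFL/LFH and of HFL/LFL were 2.20 and 3.21 for LGALS3, 4.35 and 5.13 for TREM2, 5.38 and 7.32 for KRT23, -2.20 and -1.92 for STARD4, and -0.33 and -0.93 for DHCR7. APCS and LRG1 were at -0.15 and -0.58 in HFL/LFH, not called.

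Each animal was also set against the whole range of the LFH animals. In HFL/LFL, 30.6% ± 8.17 (SD, n = 6) of genes lay outside this range, from 17.4% in animal 17 to 40.5% in animal 44. In HFL/LFH the share was 25.0% ± 9.63 (SD, n = 6), from 15.5% to 40.5%. The difference in means gave p = 0.299 (two-sided exact permutation test, where 0.00216 is the smallest p that 924 assignments allow). With 6 animals per group, a difference of this size is not excluded. Both groups were scored against the same LFH animals. Genes above the range and below it were split nearly evenly, at 16.0% and 14.7% in HFL/LFL. A further animal of the LFH kind would also hold genes outside the range of 8 others, and that share was not computed.

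**Figure D4:**
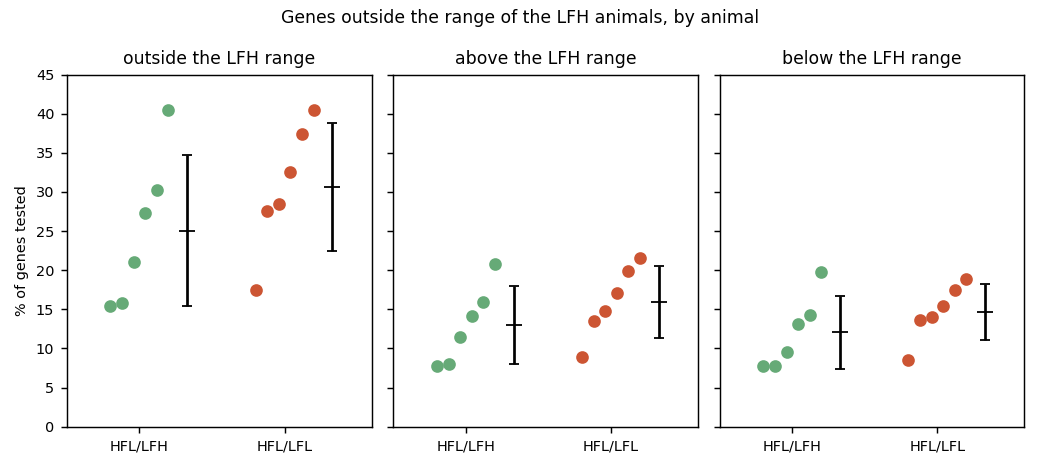
Share of 7750 genes whose CPM lay outside, above or below the range of the 8 LFH animals, for each HFL/LFH and HFL/LFL animal (points placed by value), with the mean and SD beside them. HFL/LFL animals span 17.4% to 40.5% and HFL/LFH animals 15.5% to 40.5%, so that the groups overlap.

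To see how far the residual genes are those that respond to high fat feed, each gene was classed by HFL/HFH against HFL/LFH, which share no animal with HFL/LFL or LFH. This comparison called 2784 genes (35.9%), of which 1505 (19.4%) were higher and 1279 (16.5%) lower on high fat feed. Of the 1505 higher genes, 228 (15.1%) were still higher and 20 (1.33%) lower in HFL/LFL than in LFH. They were 66.5% of the 343 genes called higher. Of the 1279 lower genes, 134 (10.5%) were still lower and 12 (0.938%) higher, which is 49.6% of the 270 genes called lower. Genes that the high fat comparison did not call, 4966 in all, held 103 higher and 116 lower genes.

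Genes higher on high fat feed had a median log2 fold change of 0.26 in HFL/LFL against LFH, and genes lower on it had -0.14. The feed comparison itself gave 1.205 and -0.63 for these genes, but its own calls chose them, so that its medians and those of the residual are not alike in kind. By single HFL/LFL animal, the first median ranged from 0.08 to 0.56 and the second from -0.30 to -0.04, so that all 6 animals had the sign of the high fat feed in both classes. Against HFL/HFL, which received the same 50 mg vitC/kg, HFL/LFL differed in 2930 genes (37.8%). Named genes that were not called in the high fat comparison and were called in HFL/LFL included APCS, LCK, CD79B, MS4A1, PLIN5 and MANF on the higher side and STARD4, GLUL, PSPH, PRDX6, ACAN, GSTM3 and TMLHE on the lower.

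**Figure D5:**
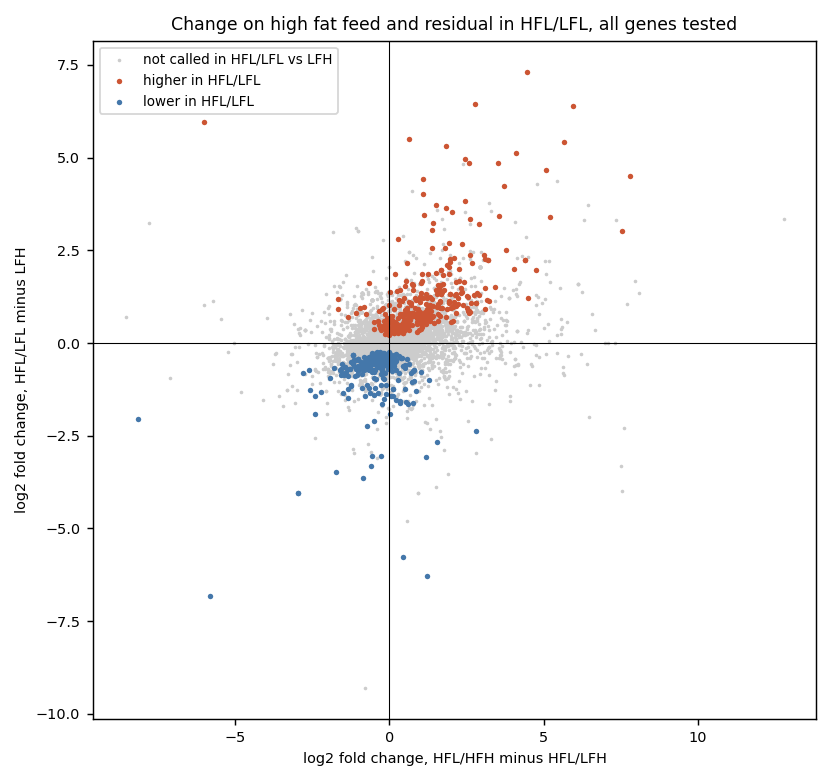
Log2 fold change of HFL/LFL minus LFH against that of HFL/HFH minus HFL/LFH for 7750 genes, from groups that share no animal. Genes called higher (343) and lower (270) in HFL/LFL are coloured, and 228 of the former lie among genes higher on high fat feed.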

How the data were processed

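Liver RNA of 44 guinea pigs was sequenced, and the 14 HFL/LFL and LFH libraries make up the comparison reported. According to the submitters' processing notes, bcl2fastq 2.19, Trimmomatic 0.38.0, HISAT2 2.1.0, StringTie 2.1.1 and DESeq2 were used. The authors deposited whole-number counts per gene symbol, made from reads aligned to guinea pig build Cav.Por.3.0, and also variance-stabilized values on a log2 scale made by the authors, used here only as an alternative. How StringTie output became counts is not given in the sources used here.

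Of 11967 symbols, the 7750 with a total of at least 200 counts were tested with edgeR 4.0.16 (R 4.3.3), TMM scaling and the quasi-likelihood F test over 6 groups at an adjusted p of 0.05. Some symbols share identical counts (7149 distinct profiles), among them SLC6A8. CPM used effective library sizes, and 3 counts served as the floor. For medians by single animal, 2 prior counts were added before log2. The 14 animals, fitted alone, limma 3.58.1 (voom with quality weights), DESeq2 1.42.0, other scalings and filters and leaving out each HFL/LFL, HFL/LFH and LFH animal were alternatives. The steps were tested on simulated data. Named genes were the called genes of largest change without overlap at a mean of at least 1 CPM, those of smallest p, the called members of each list by smallest p, SLC23A2, and genes also called against HFL/LFH in the same direction, plus genes said to be chosen after their values were seen (also MVK, MSMO1, SC5D and LTBP2). Members, lists and rules were chosen with earlier results of these data known. Replicates were separate animals. Some genes are not reported here.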

Additional observations from a re-analysis of the deposited data

Results flagged for a closer look

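In 17 of 192 groups of values, 1 animal stood far from the rest of its own group, where chance gives about 1 group in 20. Among HFL/LFL animals, animal 44 held 89.5 CPM of CCN5 (next 33.5), 1.59 CPM of CCL22 (next 0.608), 70.3 CPM of EPCAM (next 35.0), 38.7 CPM of LTBP2 (next 19.5) and 9.87 CPM of CCDC149 (next 5.85). Animal 17 held 88.2 CPM of THBS1 (next 30.2), 59.3 CPM of ACSL3 (next 30.4), 622.5 CPM of PRDX6 (next 488) and 332 CPM of THRSP (next 117), and for the last 3 genes it lay nearest to LFH. Animal 49 held 1563 CPM of CPT1A (next 689) and animal 53 held 8.45 CPM of AADAC (next 0).

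In LFH, animal 92 held 0.335 CPM of KRT23 (next 0.105). Animal 79 held 766 CPM of CTSD (next 1037), 27.8 CPM of C9orf152 (next 6.68) and 3375 CPM of SOD1 (next 2786). Animal 27 held 31.9 CPM of RNASEH2C (next 18.3) and animal 5 held 12.9 CPM of ACAN (next 7.92).

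For 11 named genes HFL/LFL and HFL/LFH differed, by an adjusted p under 0.05 in edgeR. Of them 3, RELL1, LRG1 and NYNRIN, kept that call whichever HFL/LFL or HFL/LFH animal was left out. The log2 fold changes were 1.94 for KRT23, 1.14 for MREG, 1.14 for HACD4, 0.75 for NEDD4L, 0.80 for RELL1, 2.14 for LRG1, 1.07 for APCS, 2.15 for ABCB1, 2.06 for MMP25, -1.27 for GPC1 and -0.70 for NYNRIN.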

How the results depend on the processing

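No paired analysis was possible because animal numbers are identities, and no number occurs in both groups. The 613 genes between HFL/LFL and LFH were 262 when only those 14 animals were fitted (123 higher, 139 lower; 234 shared with the 613), and limma voom called 198 higher. The other alternatives gave 418 to 780. Calls that were higher made up 55.95% of the 613, 46.9% with the 14 animals alone, 45.9% with DESeq2 on those animals and 44.9% on variance-stabilized values. Leaving out 1 animal gave 277 (without HFL/LFL animal 49) to 785 (without 17), with 384 without 44. Higher genes were 175 to 431 and lower genes 102 to 354, the latter 171 without 53 and 143 without 44.

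The 28 genes between HFL/LFH and LFH were 17 with limma voom and 64 with DESeq2, and 19 to 54 with 1 animal left out (54 without LFH animal 64). The 17 between HFL/LFL and HFL/LFH were 40, 80 and 11 with limma voom, DESeq2 and variance-stabilized values. They were 3 to 57 with 1 animal left out, namely 3, 5, 8 and 34 without HFL/LFH animals 3, 4, 33 and 43, and 4, 8, 30 and 57 without HFL/LFL animals 68, 49, 44 and 17. The high fat comparison ranged from 2485 to 2951 with 1 HFL/LFH animal left out, and HFL/LFL against HFL/HFL from 2543 to 3086 with 1 HFL/LFL animal left out. HFL/HFH and HFL/HFL animals were not left out.

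The class medians of 0.26 and -0.14 became 0.43 and -0.32 for high fat genes changed by at least 1 on the log2 scale, and 0.18 to 0.30 and -0.17 to -0.11 with 1 animal left out. The difference in genes outside the LFH range was 3.63 (without HFL/LFL animal 44) to 8.68 percentage points (without HFL/LFH animal 33), with an exact permutation p of up to 0.509. AADAC turned from 5.96 to -2.25 without HFL/LFL animal 53, and the other fits reached 6.91, without LFH animal 27. Of 93 named genes, 44 were called under every setting and 52 in every leave-one-out fit. The fit of the 14 animals alone ended the call of 36 of them, limma voom of 23 and no filter of 13. With the 14 animals alone, CLEC7A, LRG1, CLDN4, ABCB1, SLC2A8 and GPC1, which every leave-one-out fit called against LFH, had an adjusted p of 0.0576, 0.0576, 0.0546, 0.0770, 0.0540 and 0.0883. Where edgeR called 7 of 16 cholesterol genes, 4 of 13 ductular genes and 3 of 26 vitC genes, limma voom called 4, 2 and 1. The fit of the 14 animals alone had fewer animals, while limma voom used all 44. Why calls were lost was not tested. No scaling moved the median of all genes by more than 0.1. The fits of single genes against HFL/LFH with 1 animal left out were added after seeing the data. Low counts limit C9orf152, AADAC, CCL22, MROH7, KRT23, MMP12, TREM2 and UBE2QL1.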

Other observations

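Genes outside the lists were picked after their values were seen and are given as values only. CD53, a tetraspanin of leukocytes, lay at 18.04 to 33.6 CPM in HFL/LFL (median 30.8) and 10.9 to 23.4 CPM in LFH (median 14.5), with 4 of 6 HFL/LFL animals above every LFH animal (log2 fold change 0.85, adjusted p = 0.00657, edgeR). LAPTM5, a lysosomal membrane protein of leukocytes, had medians of 88.5 and 54.3 CPM (0.68, adjusted p = 0.00579, edgeR) and SASH3, a lymphocyte adaptor, 20.7 and 10.7 CPM (0.78, adjusted p = 0.0192, edgeR).

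ALAS1, the first enzyme of haem synthesis, lay at 1021 to 1212 CPM in HFL/LFL and 1419 to 2366 CPM in LFH, without overlap (-0.88, adjusted p = 0.0114, edgeR). BLVRA, biliverdin reductase, lay at 108 to 183 CPM against 195 to 301 CPM, without overlap (-0.72, adjusted p = 0.00359, edgeR). ACSL3, which activates fatty acids, lay at 20.4 to 59.3 CPM against 32.1 to 130 CPM, and 5 of 6 HFL/LFL animals lay below every LFH animal (-1.42, adjusted p = 0.00205, edgeR).

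ENPEP and CTSZ went against their direction on high fat feed. ENPEP, glutamyl aminopeptidase, was lower on high fat feed (-0.96) and higher in HFL/LFL than in LFH (0.93, adjusted p = 0.00657, edgeR), with medians of 151 and 85.8 CPM. CTSZ, a lysosomal protease, was higher on high fat feed (0.71) and lower in HFL/LFL than in LFH (-0.81, adjusted p = 0.00667, edgeR), with medians of 150 and 290 CPM.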
